A study of Mus musculus with 70 samples.

Results

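Liver mRNA of 4-week-old mice was compared between ZT21, late in the dark phase when mice are active and feed, and ZT9, late in the light phase when they rest. ZT, zeitgeber time, counts hours from lights on. Of the 70 mice of the study, 11 entered this comparison, 6 killed at ZT21 and 5 at ZT9, chosen by their labels and by no measured value. All were male C57BL/6 offspring of dams that had received either a control diet (Ctr, AIN-93G) or a high fat diet (HFD, D12492) before mating and through pregnancy, and all dams and pups were on normal chow after birth. The groups were 4w_Ctr_ZT9 with 2 mice, 4w_HFD_ZT9 with 3, 4w_Ctr_ZT21 with 3 and 4w_HFD_ZT21 with 3. The mice of a group came from different litters, and each library is 1 mouse. Both maternal diets were analysed together with diet as a term of the model. The labels give no genotype or treatment of the mice other than the diet of their dams.

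Mouse liver keeps time with a feedback loop of transcription. ARNTL pairs with CLOCK or NPAS2 and activates genes through E-boxes, among them the Per and Cry genes, whose proteins feed back on that pair, and the Nr1d genes, whose proteins repress Arntl through ROR response elements that the activators of the ROR family share. The PAR bZIP factors DBP, TEF and HLF and their antagonist NFIL3 read the same loop out to D-boxes of many genes of metabolism. In nocturnal animals the feeding and resting phases add rhythms of lipid synthesis, fatty acid oxidation, glycogen handling and chaperones to this loop.

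The elements named above could be read in the promoter windows of RefSeq (GRCm38.p6, 250 bases before to 50 after each start site), and the stretches below show where they lie in genes that the results turn on. Capitals mark the searched letters, found on either strand. CACGTG (E-box) was in 7.15% of all 32851 windows, TAGGTCA (ROR response element core) in 2.61%, TTATGNAA (a D-box form) in 3.38% and TCACNCCAC (a sterol response element form) in 1.24%. The first 2 stretches hold the ROR core, the next 4 hold E-boxes, the seventh holds 2 D-boxes and the last holds the sterol element.
Arntl (chr7:113207501-113207560, + strand): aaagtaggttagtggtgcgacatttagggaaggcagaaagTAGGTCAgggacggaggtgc
Nfil3 (chr13:52981005-52981091, − strand): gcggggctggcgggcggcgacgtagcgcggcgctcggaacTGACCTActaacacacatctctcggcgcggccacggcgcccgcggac
Cry1 (chr10:85185069-85185154, − strand): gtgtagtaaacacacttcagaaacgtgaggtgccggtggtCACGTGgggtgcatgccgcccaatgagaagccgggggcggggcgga
Ciart (chr3:95882227-95882384, − strand): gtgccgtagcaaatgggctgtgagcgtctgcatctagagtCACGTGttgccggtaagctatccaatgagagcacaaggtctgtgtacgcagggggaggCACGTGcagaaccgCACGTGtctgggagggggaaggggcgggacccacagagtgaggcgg
Bhlhe41 (chr6:145865528-145865613, − strand): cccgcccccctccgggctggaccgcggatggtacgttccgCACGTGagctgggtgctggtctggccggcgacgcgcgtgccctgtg
Tef (chr15:81802506-81802591, + strand): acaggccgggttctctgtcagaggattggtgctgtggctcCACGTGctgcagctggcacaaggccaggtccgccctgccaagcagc
Per3 (chr4:151044776-151044910, − strand): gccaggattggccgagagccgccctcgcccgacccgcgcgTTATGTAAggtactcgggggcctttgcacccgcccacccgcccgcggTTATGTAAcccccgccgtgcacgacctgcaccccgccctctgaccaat
Hmgcs1 (chr13:119690174-119690262, + strand): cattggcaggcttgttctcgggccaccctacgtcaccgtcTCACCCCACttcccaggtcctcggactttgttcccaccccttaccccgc
An E-box was found in 4 of the 9 genes of the negative limb of the clock that had a window and in 3 of 15 such clock output genes. Of these Ciart, whose window held 3 E-boxes, Bhlhe41, Tef and Coq10b were lower at ZT21, Cry1 and Lonrf3 were higher, and Per1 did not pass the test. The ROR core was found in Arntl, Nfil3 and the output gene Leo1, which were higher at ZT21. Over all genes with a window that passed the test, the E-box was in 10.3% of 880 genes higher at ZT21 and in 14.4% of 793 lower ones, against 11.1% of 11617 genes tested. The corresponding shares of the ROR core were 3.3%, 2.27% and 2.49%. Those of the D-box form were 3.18%, 3.4% and 2.82%, and those of the sterol element form 2.05%, 1.51% and 1.46%. A match of letters is a description of the window and not a bound site.

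Counts summed to between 15867488 and 19828715 per library over the 11 mice (median 18150880). The summed markers of hepatocytes were at 123509 to 160307 CPM, counts scaled to the size of the library, in the 11 libraries. Of 2 libraries that stood apart, the HFD mouse of replicate 2 at ZT9 held 21 markers of pancreatic acinar cells at 75476 CPM in sum, against 15.6 to 30.4 in the other 10, and also the highest sums for cholangiocyte (169 against at most 76.7) and adipocyte markers (219 against at most 24.6). In that mouse 116 of the 169 CPM of cholangiocyte markers came from Tff2, which was at most 1.36 CPM in the other 10 libraries. Epcam was also highest there (5.08 CPM), while Spp1, Sox9, Krt19, Krt7 and Cftr lay within the range of the other 10. Markers of islet cells were at 0 in the other 10 libraries and at 6.23 CPM in sum in that mouse. The summed levels of stellate, Kupffer, lymphocyte, neutrophil and erythroid markers overlapped between ZT9 and ZT21. Those of endothelial markers were at 174 to 208 CPM at ZT9 and 197 to 253 CPM at ZT21. They overlapped only through the HFD mouse of replicate 3 at ZT21, as the other ZT21 mice were at 210 to 253 CPM. The HFD mouse of replicate 3 at ZT21 carries 1 label with the other age of the study. Its profile correlated with the mean of the other 4-week ZT21 mice with a Spearman's rho of 0.978 across genes and with the 16-week ZT21 mice with 0.963, the same order as in the other 5 mice. In the same library expression relative to each gene's mean over the 11 libraries fell most with GC content (rho -0.608, against -0.268 to 0.319 in the other 10). The numbers of genes that passed the test of ZT21 against ZT9, in all and in each list, were also obtained without these 2 libraries.

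At ZT21, 1167 genes were higher and 1015 were lower than at ZT9, of 16776 genes tested (quasi-likelihood test of edgeR, p-values adjusted by Benjamini-Hochberg, adjusted p below 0.05). These are 6.96% and 6.05% of the genes and they are the background for every list below. The lists were chosen with earlier results of these data known, so a share above this background is a description and not a test. The median log2 fold change of all genes was 0.007, and that of the called genes was 0.64 in size. At least a 2-fold change was seen for 312 of the higher and 207 of the lower genes. Without the 2 libraries that stood apart, 1140 genes were higher and 1127 lower, and 1806 of the 2182 calls were made again in the same direction. In 732 genes (4.36%) every ZT21 mouse lay above every ZT9 mouse, and in 652 (3.89%) below. The samples are whole liver, in which fewer cells of a type and less RNA per cell cannot be told apart.

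**Figure D1:**
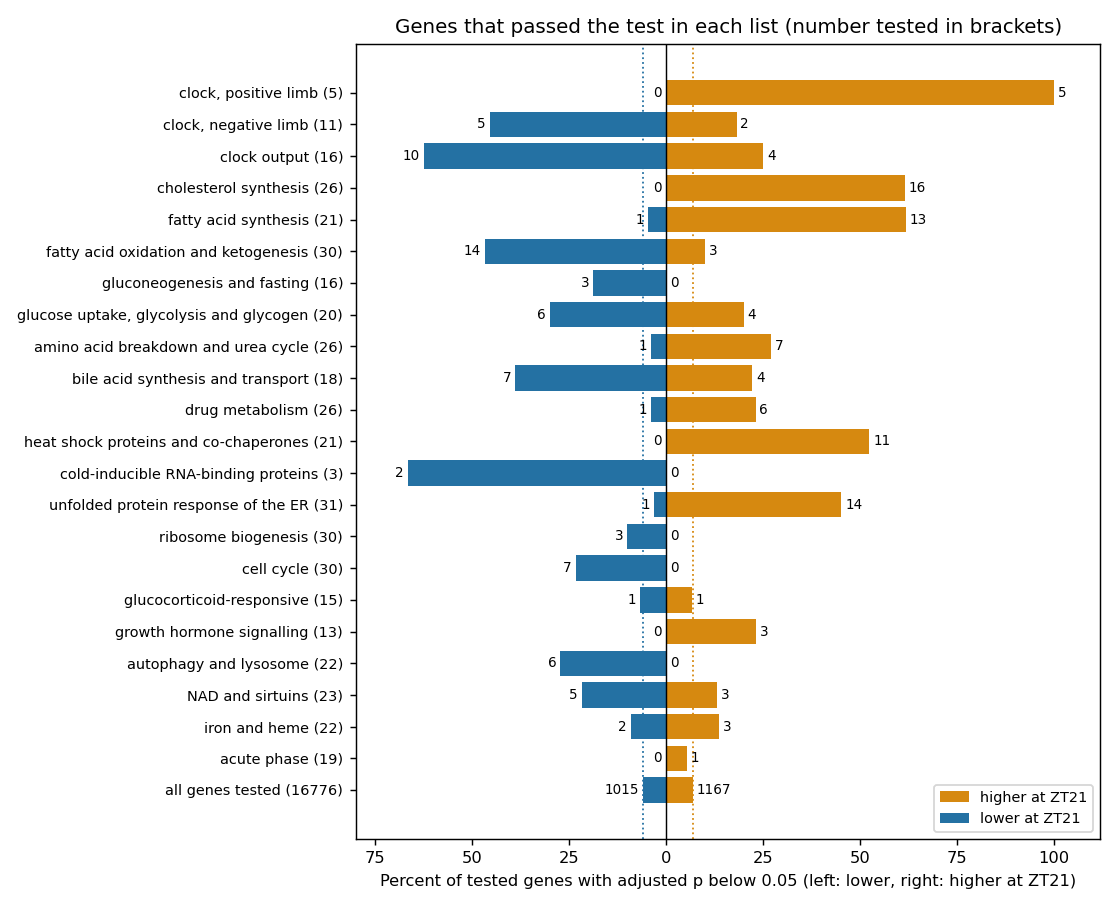
Share of tested genes (x axis, percent) with an adjusted p below 0.05 in each of 22 gene lists and over all genes, higher at ZT21 to the right and lower to the left, with the number of genes at each bar. Dotted lines mark the shares over all genes, 6.96% and 6.05%; synthesis of cholesterol (16 of 26) and fatty acids (13 of 21) leaned to the right and fatty acid oxidation (14 of 30) to the left.

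All 5 genes of the positive limb of the clock rose at ZT21, and in each of them the ZT9 and ZT21 mice did not overlap. Arntl (chr7:113207465-113314126), the partner common to both activator pairs, was at 0.902, 1.15, 0.523, 0.936 and 0.975 CPM in the ZT9 mice, given here and below as Ctr replicates 1 and 2 and HFD replicates 1, 2 and 3. At ZT21 its lowest, median and highest values were 28.7, 33.2 and 34.6 CPM, so the 6 mice lay within a narrow band far above all mice at ZT9 (log2 fold change 5.19, standard error 0.17, adjusted p = 8.4e-14). Npas2 (chr1:39193731-39363236) had no count in 4 of the 5 ZT9 libraries and 2 counts in that of Ctr replicate 2, against 8.93 to 13.5 CPM at ZT21. From the summed counts, 1208 at ZT21 and 2 at ZT9, the ratio was 489 (95% exact interval 135 to 4042, counting error only), and the fitted log2 fold change of 8.54 depends on the prior count. Clock went from 24.2, 18.1, 27.7, 31.2 and 26.8 CPM at ZT9 to a median of 71.3 CPM at ZT21 (log2 fold change 1.59, standard error 0.12, adjusted p = 2.9e-08), a far smaller step than in its partner. Rora, an activator of the ROR family, rose by 0.80 (standard error 0.16, adjusted p = 0.0029), with the HFD mouse of replicate 3 at ZT21 at 182 CPM, the highest of all 11 mice. Without that mouse the log2 fold change of Rora was 0.60.

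**Figure D2:**
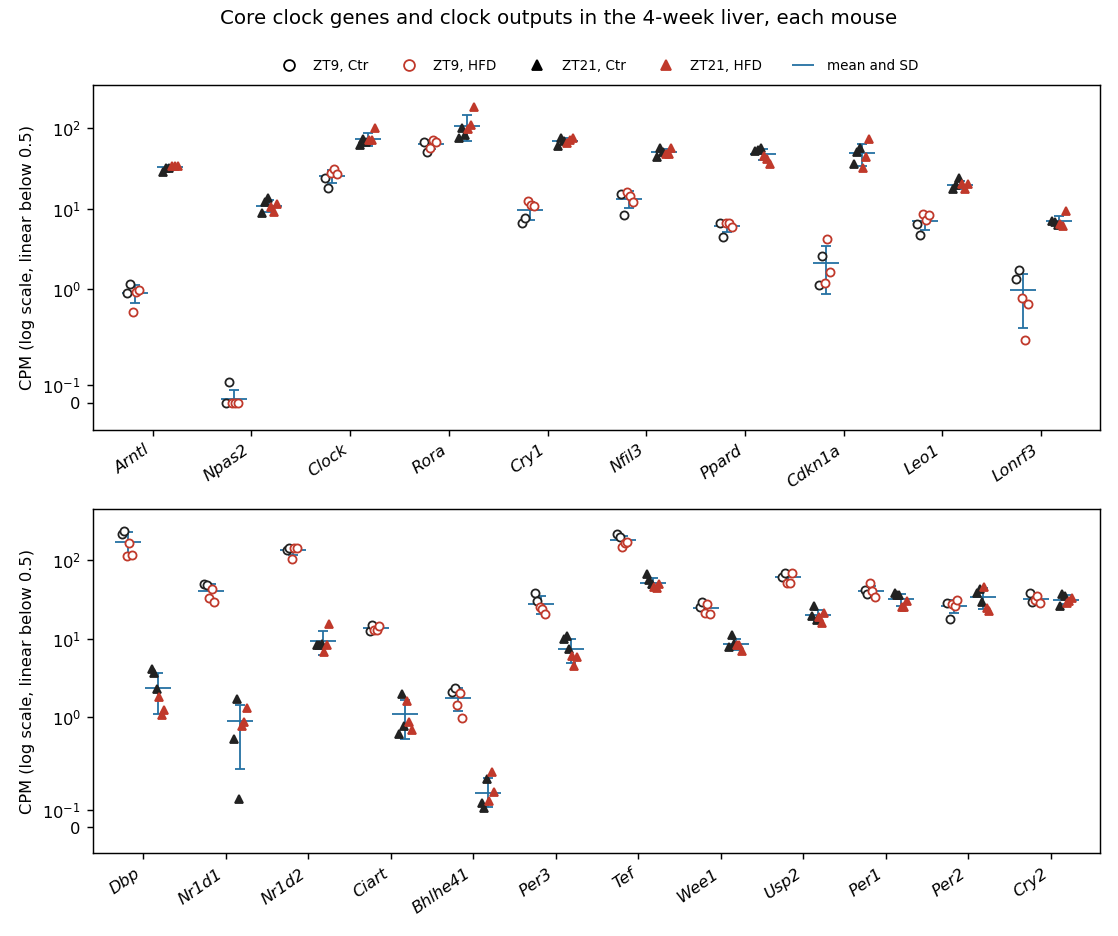
CPM of each of 11 mice (y axis, log scale, linear below 0.5) for clock and output genes that rose (top) and that fell or did not pass the test (bottom). Open circles are ZT9 and filled triangles ZT21 mice, black Ctr and red HFD, with mean and SD in blue; Arntl, Npas2, Dbp and Nr1d1 are the most widely separated, while Per1, Per2 and Cry2 at the right of the bottom panel overlap.

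The negative limb split, with 2 of 11 genes higher, 5 lower and 4 that did not pass the test. Nr1d1 and Nr1d2, which encode the heme-binding repressors REV-ERBα and REV-ERBβ, fell most. Nr1d1 (chr11:98767932-98775333) was at 49.8, 49, 32.8, 43.3 and 28.9 CPM at ZT9 and at 0.165, 0.807 and 1.70 CPM (lowest, median and highest) at ZT21 (log2 fold change -5.55, standard error 0.35, adjusted p = 1.9e-06). It overlaps Thra, so its count is uncertain. Nr1d2, which overlaps no tested coding gene, was at 135, 145, 104, 142 and 143 CPM and then at 6.78, 8.23 and 15.4 CPM (-3.85, standard error 0.19). Ciart, which encodes a repressor of the activator pair, was within 12.6 to 14.7 CPM in all 5 mice at ZT9 and between 0.611 and 1.97 CPM at ZT21 (log2 fold change -3.63). Bhlhe41 was low throughout, at 2.09, 2.36, 1.41, 1.99 and 0.975 CPM at ZT9 and at most 0.319 CPM at ZT21 (log2 fold change -3.10, adjusted p = 4.0e-05). Its relative Bhlhe40 was at 123 ± 37.7 CPM (mean ± SD, n = 5, here and below for ZT9) against 97.9 ± 18.3 CPM (n = 6, likewise for ZT21) and did not pass the test (adjusted p = 0.215).

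The 3 Per genes did not move alike. Per3 fell from 38.6, 29.9, 25.4, 23.5 and 20.9 CPM to 4.46, 6.62 and 10.9 CPM (log2 fold change -1.99, standard error 0.14, adjusted p = 6.7e-09). It overlaps Camta1, so its count is uncertain. Per1 had overlapping groups, 33.9 to 51 CPM at ZT9 and 25.2 to 37.9 CPM at ZT21, with an adjusted p of 0.0567 (-0.38). Per2 was at 17.6 to 31.3 CPM at ZT9 and 22.6 to 46 CPM at ZT21 (0.39, adjusted p = 0.283). Its means over the day were 26.1 CPM at ZT9, 39.4 at ZT13, 41.4 at ZT17 and 33.9 at ZT21, so the times compared here lay on either side of its highest mean. Of the Cry genes, Cry1 (chr10:85131700-85185064) rose from 6.60, 7.66, 12.5, 11.2 and 10.7 CPM to 60.4, 70.5 and 76.4 CPM, with the lowest ZT21 mouse 4.85 times above the highest ZT9 mouse (log2 fold change 2.91, standard error 0.14, adjusted p = 2.0e-11). Cry2 differed by -0.04 with a standard error of 0.12. Nfil3, the repressor that competes at D-boxes, rose from 15.5, 8.30, 16, 14.5 and 12.1 CPM to 43.8, 49.8 and 57.5 CPM (1.96, standard error 0.15).

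Of 16 clock output genes 10 fell, 4 rose and 2 did not pass the test. Dbp (chr7:45705088-45710203) had the lowest log2 fold change of all genes that the naming rule covers, at 216, 239, 113, 166 and 117 CPM at ZT9 and 1.06, 2.02 and 4.09 CPM at ZT21 (-6.32, standard error 0.19, adjusted p = 4.7e-13). It overlaps Sphk2, so its count is uncertain. Tef fell from 179 ± 26.1 CPM to 51.9 ± 8.01 CPM (-1.81, standard error 0.099), and the remaining factor of the family, Hlf, was at 60.7 ± 1.36 and 50.2 ± 7.54 CPM (adjusted p = 0.125). Usp2, which encodes a ubiquitin protease, Coq10b, a factor of the respiratory chain, and Wee1, a kinase that holds cells before mitosis, fell by 1.62, 1.64 and 1.56 on the log2 scale, with no overlap of the groups. Upp2, uridine phosphorylase, Por, the electron donor of cytochrome P450 enzymes, and Noct, which is related to deadenylases, fell by 1.46, 1.20 and 1.01. Nampt, the salvage enzyme of NAD, fell less, from 135 ± 16.1 to 88 ± 15.6 CPM, and its highest mean of the day was at ZT13 (262 CPM). Alas1, the entry enzyme of heme synthesis, had an adjusted p of 0.0261 with groups that overlapped (347 to 782 against 150.4 to 614 CPM). The call of Alas1 was lost without Ctr replicate 2 at ZT9 or any 1 of the 3 HFD mice at ZT21, with log2 fold changes between -1.36 and -1.08 over all fits that left 1 mouse out.

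The 4 output genes that rose were Cdkn1a, Ppard, Lonrf3 and Leo1. Cdkn1a (chr17:29090976-29100727), the cell cycle inhibitor p21, was at 1.13, 2.59, 1.20, 4.21 and 1.63 CPM at ZT9 and at 32, 47.8 and 74.1 CPM at ZT21 (log2 fold change 4.54, standard error 0.41, adjusted p = 7.4e-05). Ppard, a nuclear receptor for fatty acids, was steady within each time, 4.44 to 6.71 CPM at ZT9 and 36.1 to 57 CPM at ZT21 (2.95, standard error 0.15). Lonrf3 rose by 2.88 and Leo1, a subunit of the PAF1 elongation complex, by 1.53. Without either or both of the 2 libraries that stood apart, the counts of the positive and negative limb were the same, and those of the outputs were 4 higher and 9 or 10 lower.

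**Figure D3:**
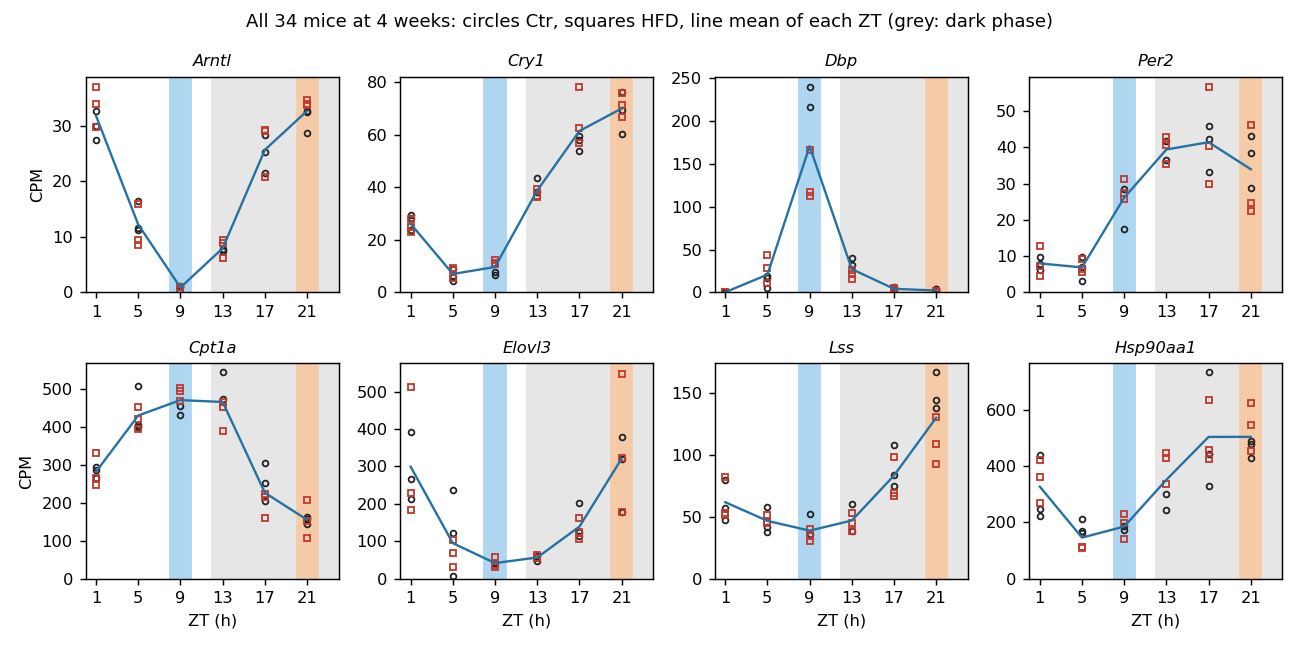
CPM of 8 genes in all 34 mice at 4 weeks against ZT (x axis, hours), circles Ctr and squares HFD, with the mean of each ZT as a line. The blue and orange bands mark ZT9 and ZT21 and grey marks the dark phase; Dbp was highest at ZT9, Arntl was lowest there, and Per2 was highest between the bands.

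By the rule for named genes (adjusted p below 0.05, at least 1 CPM on average, no overlap of the groups, same direction in each diet), 632 genes higher and 558 lower at ZT21 were eligible, and the 15 with the largest log2 fold change in each direction were taken. Among the 15 lowest were Dbp, Nr1d1, Nr1d2 and Ciart, described above. Rgs16, a regulator of G protein signalling, was at 51.9, 91.9, 35.6, 75.7 and 42.2 CPM at ZT9 and at 4.13, 7.04 and 14.3 CPM at ZT21 (-2.89, adjusted p = 9.7e-04). Pcsk4, a proprotein convertase, and Slc5a6, the transporter of biotin and pantothenate, fell by 2.66 and 2.35 on the log2 scale. Slc5a6 overlaps Atraid, and the antisense gene Gm14097 (-3.72) overlaps Shld1, so both counts are uncertain. Gpcpd1, which cleaves glycerophosphocholine, fell from 208 ± 32.3 to 44 ± 15.7 CPM (-2.24, standard error 0.22). Syt1, a calcium sensor of vesicle release, was within 16.7 to 18.9 CPM at ZT9 and 2.35 to 4.92 CPM at ZT21 (-2.30). Itpka, a kinase of inositol trisphosphate, and 5 genes known by clone names (Gm15611, Gm42047, A930033H14Rik, Gm45819 and Gm14097) made up the rest of the 15, with log2 fold changes of -3.72 to -2.08.

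Among the 15 highest, Npas2, Arntl and Cdkn1a have been described. Slc34a2, a sodium-phosphate cotransporter, was at 0.564, 0.691, 0.314, 0.293 and 0.325 CPM at ZT9 and 5.73, 9.95 and 17.5 CPM at ZT21 (4.55, standard error 0.33, adjusted p = 2.1e-08). Pnpla5 (chr15:84112356-84123175) and Pnpla3 (chr15:84167837-84187236) encode lipases of the patatin-like family and both rose, Pnpla5 from at most 0.395 CPM to 2.34 to 7.18 CPM (4.54) and Pnpla3 from 0.209 to 1.35 to 2.60 to 12.4 CPM (3.37). Loxl4, a lysyl oxidase, rose from 1.10 ± 0.281 to 19.1 ± 6.06 CPM (4.06, standard error 0.25). Pitx3, a homeobox factor, Chrna4, a nicotinic receptor subunit, and Myom3, a protein of the sarcomere, rose by 4.20, 4.06 and 3.96. The calcium pump gene Atp2b2 rose by 3.42 (standard error 0.27). Tubb2b rose by 3.95 from at most 0.733 CPM to 1.32 to 10.5 CPM, and its reads may be shared with its near copy Tubb2a. The other 3 were the non-coding or unclassified genes Gm45301 (5.32), Gm43611 (3.69) and Gm30692 (3.54).

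Genes of cholesterol synthesis were higher at ZT21: 16 of 26 rose, none fell, and the median log2 fold change of the list was 0.54 against 0.007 over all genes. The enzymes stood along the whole path from acetyl-CoA to cholesterol. Hmgcs1 (chr13:119690379-119708260), which makes HMG-CoA, was at 325, 292, 136, 248 and 305 CPM at ZT9 and 406, 533 and 844 CPM at ZT21 (log2 fold change 1.08, standard error 0.18, adjusted p = 0.00113). Of the steps from mevalonate on, Pmvk (1.62), Mvd (1.57), Idi1 (0.80) and Fdps (1.62) rose, and Mvk (0.28, adjusted p = 0.366) did not pass. Fdps, which makes farnesyl pyrophosphate, went from 4.40, 2.36, 1.88, 3.10 and 3.36 CPM to 5.32, 9.37 and 12.6 CPM (standard error 0.23, adjusted p = 5.9e-05). Lss (chr10:76531588-76557138), which closes the sterol rings, had the lowest adjusted p of the list, at 52.7, 36.6, 30.7, 34.4 and 40.3 CPM at ZT9 and 92.5, 134 and 167 CPM at ZT21 (1.70, standard error 0.13, adjusted p = 1.2e-08). Sqle, which makes the epoxide that LSS uses, rose by 0.82, and of the later enzymes Dhcr7 rose by 1.04 and Sc5d by 0.55. Insig1, which retains the SREBP escort in the endoplasmic reticulum, rose by 0.86 (standard error 0.18). Fdft1 and Cyp51 also rose (0.64 and 0.56) but overlap Ctsb and Akap9. With both libraries that stood apart left out, 15 of 26 rose and 0 fell.

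Of 21 genes of fatty acid synthesis, 13 rose and 1 fell (median 0.68). Acly (chr11:100476353-100528000), which makes acetyl-CoA from citrate, was at 325, 224, 220.2, 285 and 266 CPM at ZT9 and 517, 673 and 818 CPM at ZT21 (1.36, standard error 0.14, adjusted p = 9.3e-07). Acss2, which makes it from acetate, rose by 1.37, although it overlaps Ggt7 and Gss. The acetyl-CoA carboxylases differed in their values: Acacb, the form at mitochondria, was at 87.5, 56.5, 87.8, 61.6 and 59 CPM and then 217, 248 and 290.0 CPM (1.83, standard error 0.13), and Acaca, the cytosolic form, was at 129 ± 22.2 and 147 ± 19.5 CPM (0.19, adjusted p = 0.354). Fasn, the synthase, rose from 802, 400.0, 491, 670.2 and 469.6 CPM to 837, 1411 and 2243 CPM (1.32, adjusted p = 0.0201). Its call was lost without HFD replicate 1 at ZT9, where the log2 fold change was 1.29. Elovl3 (chr19:46131897-46135307), an elongase of very long chains, had the second largest step of the list after Pnpla3, from 42.4, 41.3, 31.5, 36.9 and 57.7 CPM to 177, 321 and 548 CPM (2.95, standard error 0.35, adjusted p = 5.0e-04). Insig2 rose by 1.89, Gpam, the first acyltransferase of glycerolipid synthesis, by 1.40, Thrsp by 1.02 and Elovl5 by 0.68. Fads2, a desaturase of polyunsaturated fatty acids, was the gene that fell, from 466 ± 94.6 to 302 ± 48 CPM (-0.65, standard error 0.13, adjusted p = 0.00191), while Fads1 was at 0.07. Srebf1, the transcription factor of the path, was at 150.4 to 356 CPM at ZT9 and 236 to 463 CPM at ZT21 and did not pass (0.44, adjusted p = 0.329).

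**Figure D4:**
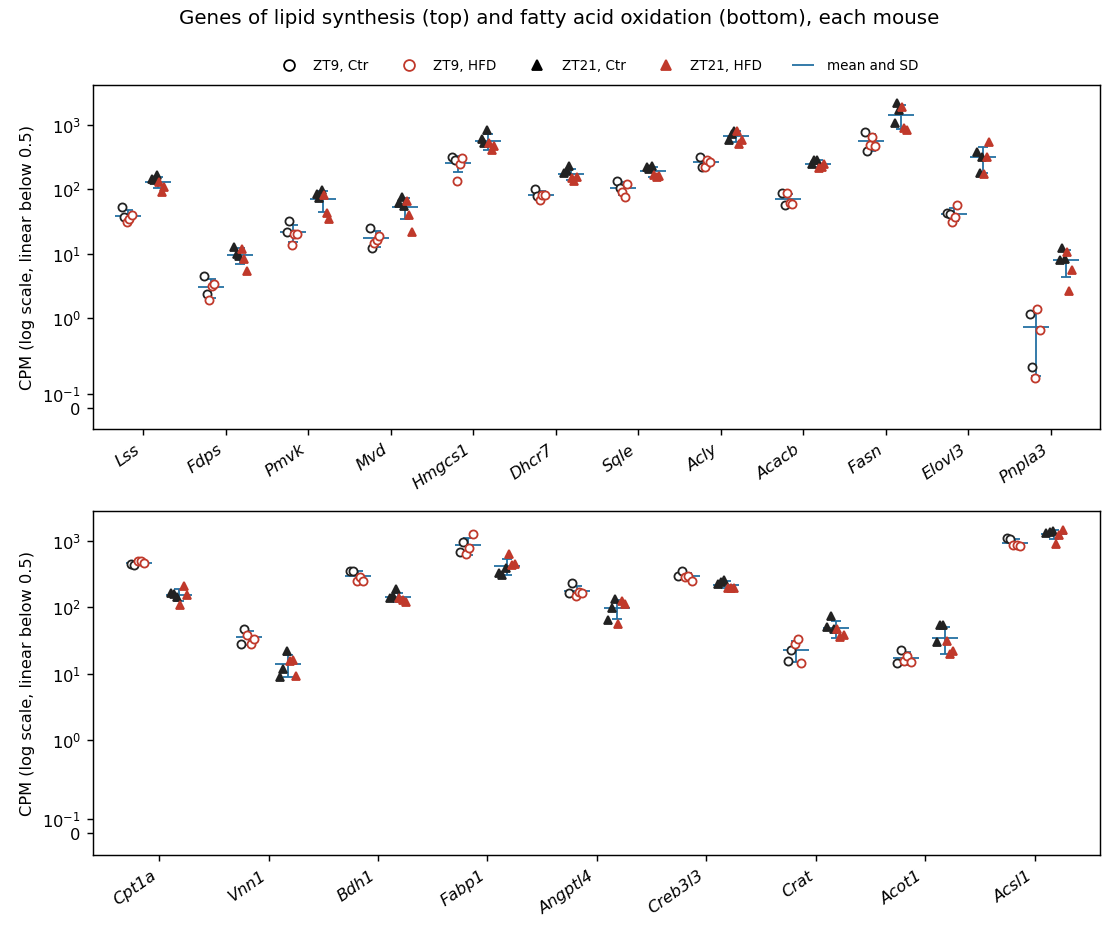
CPM of each of 11 mice (y axis, log scale, linear below 0.5) for 12 genes of lipid synthesis (top) and 9 of fatty acid oxidation and ketogenesis (bottom). Open circles are ZT9 and filled triangles ZT21, black Ctr and red HFD, with mean and SD in blue; Lss, Acly, Acacb and Elovl3 do not overlap between the times, and Cpt1a lies at 433 to 502 CPM at ZT9 and 108 to 207 CPM at ZT21.

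Fatty acid oxidation and ketogenesis leaned the other way, with 14 of 30 genes lower, 3 higher and a median of -0.37. In Ctr mice alone 8 fell and 2 rose, and in HFD mice alone 3 fell and 0 rose. Cpt1a (chr19:3323301-3385732), which carries fatty acids into mitochondria and is the step that malonyl-CoA inhibits, was at 455, 433, 502, 496 and 469 CPM at ZT9 and 108, 156 and 207 CPM at ZT21 (log2 fold change -1.58, standard error 0.13, adjusted p = 6.2e-08). Bdh1, which makes the ketone body 3-hydroxybutyrate, fell by 1.07 on the log2 scale. Vnn1, a pantetheinase, fell by 1.34, Fabp1, the liver fatty acid carrier, by 1.03, and Creb3l3, a membrane-bound transcription factor of fasting, by 0.45. Of the enzymes of beta-oxidation itself, the log2 fold change of Acadm was -0.38 and that of Decr1 -0.39. The calls of both were lost without Ctr replicate 2 at ZT9 (Acadm -0.32, Decr1 -0.30), and that of Decr1 was also lost without Ctr replicate 2 or HFD replicate 2 at ZT21 (-0.46 to -0.30). Without Ctr replicate 2 at ZT9, which leaves 1 Ctr mouse at that time, 8 of the 30 fell and 1 rose. Acot1, a thioesterase, rose by 0.90, and Crat, carnitine acetyltransferase, by 1.07. These calls were lost without the same Ctr mouse (0.92 and 1.05), that of Crat without HFD replicate 1 at ZT21 as well (1.07), and that of the acyl-CoA synthetase Acsl1 (0.44) without HFD replicate 3 at ZT9 (0.40). Ppara, the receptor that drives many of these genes, was at 77.2 ± 21.7 and 56.8 ± 11.7 CPM (adjusted p = 0.226), and Fgf21, a fasting hormone, had a log2 fold change of -2.24 with a standard error of 0.80 (adjusted p = 0.0717).

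Among 16 genes of gluconeogenesis and fasting none rose and 3 fell, with a list median of 0.14. Without HFD replicate 1 at ZT21, 1 rose, Tat (0.38). Aqp9, the glycerol channel, fell from 436, 493, 486, 398 and 473 CPM to 184, 236 and 267 CPM (-0.98, standard error 0.11, adjusted p = 2.4e-06). Sds, serine dehydratase, fell by 1.06, although it overlaps Plbd2. The last of them, Slc37a4, the glucose-6-phosphate transporter, kept its call in only 5 of the 11 fits that left 1 mouse out, with values between -0.47 and -0.31. It lost its call without either Ctr mouse or HFD replicate 3 at ZT9, or without Ctr replicate 1 or 2 or HFD replicate 2 at ZT21. The enzymes at the ends of the path, Pck1 (-0.39, standard error 0.13) and G6pc (0.19, standard error 0.21), did not pass (adjusted p = 0.0639 and 0.643).

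Genes of glycogen handling moved both ways. Gys2 (chr6:142422613-142473109), the liver glycogen synthase, was at 286, 387, 186, 232 and 244 CPM at ZT9 and 88.3, 107 and 122 CPM at ZT21 (-1.32, standard error 0.13, adjusted p = 8.8e-07), and Ugp2, which supplies its UDP-glucose, fell by 0.96. Ppp1r3b and Ppp1r3c, subunits that bring protein phosphatase 1 to glycogen, rose from 179 ± 36.6 to 395 ± 58.5 CPM (1.14) and from 32.9 ± 5.65 to 107 ± 46.9 CPM (1.71). Another such subunit, Ppp1r3g, was at 59.2, 63.4, 11.4, 19.1 and 3.41 CPM at ZT9, a wide spread within 1 time, and at 0.235, 0.896 and 4.57 CPM at ZT21 (-4.09, standard error 0.95, adjusted p = 0.0248). Its groups overlapped, and its call held in 4 of the 11 fits that left 1 mouse out (-5.21 to -3.69), being lost without either Ctr mouse or HFD replicate 2 at ZT9, any Ctr mouse at ZT21 or HFD replicate 1 at ZT21. Slc2a2, the glucose transporter GLUT2, fell from 604 ± 65.8 to 305 ± 35.9 CPM (-0.98, standard error 0.11). Of the 20 genes of the list 4 rose and 6 fell.

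In amino acid breakdown and the urea cycle 7 of 26 genes rose and 1 fell. Without HFD replicate 3 at ZT21, 3 others fell, and without both libraries that stood apart 2 did. Cps1 (chr1:67123026-67231259), the entry enzyme of the urea cycle, was at 4525, 3506, 4733, 4584 and 4497 CPM at ZT9 and 6742, 7790.0 and 8149 CPM at ZT21 (0.81, standard error 0.11, adjusted p = 2.9e-05). Of the other cycle enzymes Ass1 rose by 0.66 and Asl by 0.43, while Otc (-0.04) and Arg1 (0.19) did not pass (adjusted p = 0.896 and 0.23). Cth, which makes cysteine, rose by 0.70 (standard error 0.10), and Hal, histidine ammonia-lyase, and Aass, of lysine breakdown, rose by 0.50 and 0.37. Oat, which fell (-0.63), lies inside the wide annotation of Fgfr2, and its call was lost without any 1 of the HFD mice at ZT21 (-0.79 to -0.52 over all fits that left 1 mouse out).

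Of 18 genes of bile acid synthesis and hepatic transport, 7 fell and 4 rose. The sterol export pair Abcg5 and Abcg8, which share a head-to-head locus and overlap, fell by 1.22 and 1.67, Abcg8 from 93.4, 115, 85.6, 70.9 and 60.1 CPM to 22.7, 26.9 and 29.2 CPM. The canalicular pumps split, with Abcb4, for phospholipid, lower (-0.78, standard error 0.11) and Abcb11, for bile salts, higher (0.67, standard error 0.10, adjusted p = 1.5e-04). Abcc2 (-0.50) and Amacr (-0.58) fell, and Akr1d1, a reductase of bile acid synthesis, rose by 0.51. Cyp7a1, the rate-limiting enzyme of the path, was at 177 to 405 CPM at ZT9 and 99.9 to 449.6 CPM at ZT21 (-0.14, adjusted p = 0.875). Without 1 mouse, either Ctr mouse or HFD replicate 3 at ZT9, Ctr replicate 1 or 3 or HFD replicate 2 at ZT21, only 2 of the 18 rose.

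Among 26 genes of drug metabolism 6 rose and 1 fell, and Rxra without Ctr replicate 2 at ZT9 (-0.41) or Ephx1 without HFD replicate 2 at ZT21 (-0.54) was a further call. Cyp2e1, the ethanol-inducible P450, fell from 6292, 7769, 7936, 6143 and 7527 CPM to 3401, 3635 and 5048 CPM (-0.86, standard error 0.12, adjusted p = 6.2e-05). Fmo5, Fmo1 and Gsta3 rose by 0.80, 0.66 and 0.61, and the carboxylesterase Ces1d by 0.50. Cyp2b10, the classical target of the receptor CAR, was low, at 0.262 to 2.99 CPM at ZT9 and 2.35 to 9.21 CPM at ZT21 (2.13, adjusted p = 0.00726).

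Chaperones were higher at ZT21. Of 21 heat shock proteins and co-chaperones 11 rose and none fell (median 0.46), and 11 or 12 rose in every fit that left 1 mouse out. Hsp90aa1 (chr12:110690605-110702728), the inducible cytosolic HSP90, was at 188, 172, 229.5, 141 and 196 CPM at ZT9 and 430.1, 485 and 624 CPM at ZT21 (1.46, standard error 0.13, adjusted p = 1.1e-07). Hspa4l and Hsph1, nucleotide exchange factors of HSP70, rose by 1.62 and 1.06, Hspb1, a small heat shock protein, by 1.69, and the HSP90 co-chaperones Stip1 and Fkbp4 by 1.01 and 0.99. The HSP70 genes Hspa1a and Hspa1b, near copies of each other, were at -0.12 and 0.17 with standard errors of 0.74 and 0.48 (adjusted p = 0.952 and 0.88). Of the 3 RNA-binding proteins listed that rise with lower body temperature 2 fell, Rbm3 from 20.5, 18.1, 26.1, 22.2 and 23.7 CPM to 6.13, 8.11 and 13.2 CPM (-1.30, adjusted p = 1.8e-05) and Cirbp by 0.97 (standard error 0.18).

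Of 31 genes of the unfolded protein response of the endoplasmic reticulum 14 rose and 1 fell (median 0.31). Hspa5 (chr2:34771970-34777547), which encodes the lumenal chaperone BiP, was at 714, 591, 883, 608 and 1059 CPM at ZT9 and 1202, 1679 and 2045 CPM at ZT21 (1.16, standard error 0.15, adjusted p = 4.1e-05). Others that rose were Sdf2l1 (1.32), Hyou1 (1.26), Pdia4 (1.19), Calr (0.84) and Hsp90b1 (0.78). The sensors Ern1 (0.20), Eif2ak3 (0.11) and Atf6 (-0.06) and the factors Xbp1 (0.06), Atf4 (-0.04) and Ddit3 (-0.09) did not pass the test. Trib3, a target of the ATF4 arm, fell from 8.15 ± 2.94 to 3.21 ± 1.23 CPM (-1.35, adjusted p = 0.00328), and Asns, another, was at -1.61 with a standard error of 1.03 (adjusted p = 0.398). At ZT9 Asns was at 39.7 CPM in HFD replicate 2, the library with pancreatic markers, beside 7.75 CPM in the next mouse. A link between its Asns level and those markers was not tested.

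Of 30 cell cycle genes 7 fell and none rose (median -0.39). Ccnd1, cyclin D1, was at 52.1, 42.9, 40.8, 37 and 53 CPM at ZT9 and 17.7, 22.3 and 29.7 CPM at ZT21 (-1.01, standard error 0.13, adjusted p = 1.6e-05), although it overlaps Oraov1, and Ccne1, cyclin E1, at 4.79, 6.80, 3.98, 2.34 and 4.77 CPM and 0.560, 1.17 and 1.70 CPM (-1.93, adjusted p = 1.5e-04). Of the mitotic genes Cdk1 fell by 0.82 and Ccnb2 by 1.76, while Mki67 (-0.32, adjusted p = 0.445) and Top2a (-0.47, adjusted p = 0.26) did not pass. The direction in the list was opposite to that of the inhibitor Cdkn1a. Without Ctr replicate 2 at ZT21, HFD replicate 2 at ZT9 or HFD replicate 1 at ZT21, 4 of the 30 fell.

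In ribosome biogenesis 3 of 30 genes fell (Npm1, -0.48; Gnl3, -0.46; Ncl, -0.35) and none rose, a share not far from the background. The call of Ncl was lost without either Ctr mouse at ZT9 or Ctr replicate 1 or 2 at ZT21 (-0.41 to -0.29), and without Ctr replicate 2 at ZT9 only Gnl3 fell. Without HFD replicate 1 at ZT9, Tsr1 rose (0.46), and without HFD replicate 3 at ZT21, Bop1 did (0.32). Of 22 genes of autophagy and the lysosome 6 fell and none rose. Gabarapl1, an ATG8 protein of the autophagosome, fell from 143, 206, 159.7, 179 and 162 CPM to 74.9, 86.1 and 107 CPM (-0.95, standard error 0.11, adjusted p = 8.0e-06), and the kinase Ulk1, which starts the process, fell by 0.91. Map1lc3b and Wipi2 fell by 0.59 and 0.58. The lysosomal genes Lamp1 (0.08) and Ctsd (-0.07) and the transcription factor gene Tfeb (-0.14) did not pass.

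The lists that remain had few calls. In the list of NAD and sirtuins 3 of 23 rose and 5 fell, and without Ctr replicate 2 at ZT9 these were 1 and 3. Acmsd, which diverts tryptophan from NAD synthesis, rose from 32.1, 24.7, 15.2, 30.8 and 38.7 CPM to 98.7, 111 and 126 CPM (1.99, standard error 0.19, adjusted p = 9.1e-06), and Nmrk1 and Nadsyn1, of NAD synthesis, fell by 0.84 and 0.70. Of 22 genes of iron and heme 3 rose and 2 fell, led by Tfrc, the transferrin receptor (48.9 ± 13.7 to 105 ± 26.7 CPM, 1.16, adjusted p = 0.00199). Hamp, the iron hormone hepcidin, was at 31.5 to 202 CPM at ZT9 and 0.441 to 29.2 CPM at ZT21 and did not pass (-2.17, adjusted p = 0.0784). In growth hormone signalling 3 of 13 rose, Stat5b (0.62), Stat5a (0.91) and Igf1 (0.48), and none fell. Without either or both of the libraries that stood apart, 1 of the 13 fell. Of 15 genes that respond to glucocorticoids 1 rose (Tsc22d3, 0.52) and 1 fell (Sgk1, -0.55), and the latter call held in only 3 of the 11 fits that left 1 mouse out (-0.67 to -0.37), those without HFD replicate 1 or 3 at ZT9 or Ctr replicate 2 at ZT21. Without HFD replicate 3 at ZT21, 2 of the 15 rose and 2 fell, without HFD replicate 1 at ZT21, 2 rose, and without both libraries that stood apart 2 fell. Of 19 acute phase genes 1 rose, Crp (0.49, adjusted p = 0.0042). Without HFD replicate 2 at ZT9, 2 acute phase genes fell, Fgb (-0.44), a fibrinogen chain, and Serpina3n (-0.38), and without both libraries that stood apart the other fibrinogen chains Fga (-0.32) and Fgg (-0.39) fell too. With all 11 mice Fga, Fgb and Fgg were at -0.21, -0.29 and -0.17 (adjusted p = 0.326, 0.213 and 0.565).

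Whether the contrast differed between the maternal diets was tested with the interaction of diet and ZT. None of 16776 genes had an adjusted p below 0.05 (0.0%), 1048 had an unadjusted p below 0.05, and DESeq2 called 12. Taken alone, the Ctr mice gave 960 higher and 726 lower genes and the HFD mice 358 and 284, and of the 486 genes called in both all but 1 had the same sign. The lowest p-values belonged to Lhpp, Shb, Fgfr2, Rnf152 and Baiap2, each with an adjusted p of 0.252. Lhpp, a histidine phosphatase, was at 51.3, 56.8, 72.8, 79 and 72.6 CPM at ZT9 and 17.5, 30.9 and 41.2 CPM at ZT21, with a log2 fold change of -0.49 in Ctr and -1.74 in HFD mice. It lies within the wide annotation of Fgfr2 (-0.50 and 0.52), so both counts are uncertain. Shb, an adaptor of tyrosine kinases, was at 0.70 and -0.52, Rnf152, a lysosomal ubiquitin ligase, at -1.34 and 0.03, and Baiap2, of the actin cytoskeleton, at 1.38 and 0.29. Among the clock and clock output genes the lowest unadjusted p was 1.1e-04, that of Tsku (0.92 in Ctr, -1.02 in HFD, adjusted p = 0.259).

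The same contrast was taken in the 12 mice of 16 weeks, 3 of each diet at each time, and the difference between the ages was tested as an interaction over 16444 genes. The adjusted p was below 0.05 for 402 genes (2.44%), of which 140 had a log2 fold change that was higher at 16 weeks and 262 one that was lower. With the size factors of DESeq2 in edgeR this split was 214 higher and 202 lower. Of the genes tested at both ages, 819 were called in the same direction at both, which is 37.6% of the 4-week calls and 39.0% of the 16-week calls. The count of age differences rests on few mice: it was 69 without Ctr replicate 2 at ZT9 at 4 weeks, 113 without HFD replicate 3 at ZT21 at 16 weeks, 666 without Ctr replicate 2 at ZT21 at 16 weeks, and 76 with GC content as a covariate. The log2 fold changes at 4 and 16 weeks were 5.19 and 5.06 for Arntl, 2.91 and 2.58 for Cry1 and, among the outputs, -6.32 and -5.80 for Dbp. Of the 16 genes of both limbs, Clock (1.59 at 4 weeks and 1.00 at 16 weeks, adjusted p of the difference = 0.0284), Nr1d2 (-3.85 and -2.84, 0.0494) and Per2 (0.39 and -0.95, 0.0133) passed. Of the 23 fits that left 1 mouse out, Clock passed in 11, Nr1d2 in 9 and Per2 in 22, the exception for Per2 being Ctr replicate 2 at ZT9 at 4 weeks.

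In cholesterol synthesis the ages differed in 9 of 26 genes, all with a lower log2 fold change at 16 weeks. At 16 weeks 4 of the 26 rose and 4 fell from ZT9 to ZT21, with a median of -0.15, against 16, 0 and 0.54 at 4 weeks. Over all genes tested at 16 weeks 6.26% were higher and 6.5% lower at ZT21. Those of the list that rose were Pmvk, Dhcr7, Ebp and Acat2, and Stard4, Msmo1 and Hsd17b7 were among those that fell. Lss was at 1.70 at 4 weeks and 0.45 at 16 weeks (difference -1.28, standard error 0.24, adjusted p = 0.00846), Fdps at 1.62 and -0.44 (difference -2.08, adjusted p = 0.00777) and Sqle at 0.82 and -0.23 (adjusted p = 0.0196). The other 6 were Idi1, Fdft1, Cyp51, Hsd17b7, Msmo1 and Stard4. Lss, Fdps and Hsd17b7 passed in all 23 fits that left 1 mouse out, Stard4 in 22, Sqle in 21, Cyp51 in 20 and Idi1 in 19, but Fdft1 in 8 and Msmo1 in 5. Over these fits the count was 3 to 10, with 3 without HFD replicate 3 at ZT21 at 16 weeks, 4 without Ctr replicate 2 at ZT9 at 4 weeks and 5 without HFD replicate 3 at ZT21 at 4 weeks. The median difference of the list stayed between -0.60 and -0.81 in these fits, against -0.04 over all genes. With GC content as a covariate 1 of the 26 passed, with a median of -0.68. In fatty acid synthesis 3 of 21 genes differed (Srebf1, 0.44 and -0.71; Elovl6, 0.58 and -0.75; Gpam, 1.40 and -0.01) and passed in 9, 17 and 15 of the 23 fits that left 1 mouse out, while Acly (1.36 and 0.87), Acacb (1.83 and 1.46) and Elovl3 (2.95 and 3.39) rose at both ages.

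**Figure D5:**
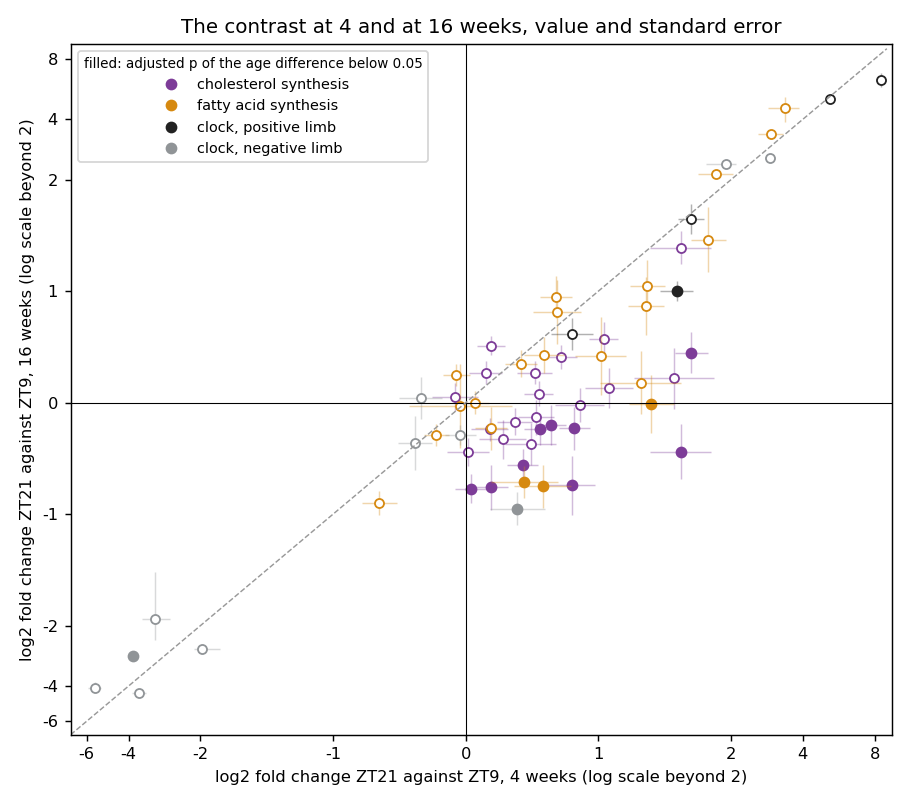
Log2 fold change of ZT21 against ZT9 at 4 weeks (x axis) and at 16 weeks (y axis), linear to 2 and logarithmic beyond, with standard errors, for genes of cholesterol synthesis, fatty acid synthesis and both limbs of the clock. Filled points passed the test of the age difference; 3 of the 16 clock genes are filled, as are 9 of the 26 cholesterol genes, which lie below the dashed line of equality.

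The 10 genes with the lowest p of the age difference were Sun2, Srsf3, Foxa3, Xpo1, Spint2, Epm2aip1, Slc8b1, Mphosph8, Fdps and Nav2. They were picked by this p, so passing the same test again with 1 mouse fewer is no independent support. Sun2, a protein of the nuclear envelope, fell at 4 weeks from 48.7, 78.5, 45.5, 49.4 and 46.1 CPM to 17.9, 26.9 and 31.4 CPM (-1.09) and was at 0.29 at 16 weeks (adjusted p of the difference = 6.6e-04). Foxa3, a hepatocyte transcription factor, was at -0.77 and 0.36, and Spint2, a protease inhibitor, at -0.45 and 0.40. The nuclear export receptor Xpo1 was at 0.54 and -0.27, and the splicing factor Srsf3 at 0.25 and -0.76. Slc8b1, the mitochondrial sodium-calcium exchanger, was at -1.18 and 0.38, Epm2aip1 at 0.90 and -0.15, Nav2 at 1.01 and -0.15 and Mphosph8, a reader of histone methylation, at 0.15 and -0.84. In each of these the fitted values at the 2 ages lay on opposite sides of 0, some of them close to it. Of the 402 genes that differed between the ages, 43 were called at both ages, 16 of them in opposite directions. A further 171 were called only at 4 weeks and 146 only at 16 weeks. All 10 passed in each of the 23 fits that left 1 mouse out, with differences of 1.27 to 1.47 for Sun2 and -2.23 to -1.89 for Fdps.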

How the data were processed

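The authors deposited raw read counts per gene, 1 table for each age, made with HISAT2 (2.0.5, GRCm38) and featureCounts (1.5.0-p3, uniquely mapped reads), per the study's methods and notes; the strand setting is not given in the sources used here. For 4 weeks, 2 columns of no listed sample were not used. Depth was 15867488 to 19828715 counts per library. A gene entered if it was counted in 50% or more of both diets' mice at that age.

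The counts as deposited were fitted with edgeR (4.0.16, R 4.3.3; TMM, robust quasi-likelihood) on diet and ZT over the 11 mice, and p-values were adjusted by Benjamini-Hochberg over 16776 genes. The diet and age differences were interaction terms (11 and 23 mice). In simulated data with this design 82 of 100 genes changed by 1 on the log2 scale and 98 of 100 changed by 2 were called, with 8 false calls among 16776 genes. Only genes with at least 1 CPM on average were changed, and no diet effect or library that stood apart was simulated. The real data held 2182 calls, so 8 is not the number of false calls to expect there. CPM values use TMM factors over all 70 libraries, except sums of markers, which use library totals. Levels are not per length, so they were compared within a gene. DESeq2 (1.42.0), other scalings, filters, a replicate block, GC content and leaving out mice were alternatives. Replicates are different mice, and in every group they differed by more than sampling noise. Of the tested genes, 22.8% overlap a coding gene.

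The text names the 15 genes per direction with the largest log2 fold change (adjusted p below 0.05, at least 1 CPM on average, no overlap of the groups, same sign in each diet), members of the gene lists, and the 5 and 10 genes with the lowest p for a diet and an age difference. The members and lists were chosen with earlier results of these data known. Promoter windows and their motif letters came from RefSeq (GRCm38.p6). Some genes of the lists are not reported here by name.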

Additional observations from a re-analysis of the deposited data

Results flagged for a closer look

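In the 4-week mice, 26 of 414 groups of values (1 gene at 1 ZT, over the genes given with values above) had 1 mouse whose gap to its nearest neighbour took up more of the group's range than Dixon's 95% critical value allows. Chance gives about 1 in 20 such groups. The share of the range is given for each as the gap ratio, after the value of that mouse and its nearest neighbour in CPM. Replicate 2 of the Ctr mice at ZT9 had Cps1 lowest (3506 beside 4497, gap ratio 0.808), Gm14097 highest (23.8 beside 13.1, gap ratio 0.749), Itpka highest (5.59 beside 2.31, gap ratio 0.816), Npas2 highest (0.115 beside 0, gap ratio 1.0), Pcsk4 highest (27.0 beside 17.8, gap ratio 0.77) and Sun2 highest (78.5 beside 49.4, gap ratio 0.879). Replicate 3 of the HFD mice at ZT21 had Clock highest (101 beside 74.1, gap ratio 0.679), Coq10b highest (60.5 beside 37.8, gap ratio 0.662), Lonrf3 highest (9.30 beside 7.05, gap ratio 0.706), Nr1d2 highest (15.4 beside 8.55, gap ratio 0.795), Otc highest (659 beside 469, gap ratio 0.695) and Rora highest (182 beside 110.5, gap ratio 0.673). Replicate 2 of the Ctr mice at ZT21 had Atp2b2 highest (28.3 beside 14.5, gap ratio 0.736), Crat highest (75.3 beside 50.1, gap ratio 0.635), Cth highest (839 beside 695, gap ratio 0.67), Fgf21 highest (0.603 beside 0.221, gap ratio 0.634) and Nav2 highest (69.0 beside 47.5, gap ratio 0.72). Replicate 2 of the HFD mice at ZT21 had Mki67 highest (10.4 beside 5.85, gap ratio 0.701), Ppp1r3g highest (4.57 beside 1.71, gap ratio 0.66) and Top2a highest (11.5 beside 5.87, gap ratio 0.673). Replicate 1 of the Ctr mice at ZT21 had Arntl lowest (28.7 beside 32.4, gap ratio 0.639) and Insig1 highest (644 beside 539, gap ratio 0.647). Replicate 1 of the Ctr mice at ZT9 had Hal highest (349 beside 272, gap ratio 0.711). Replicate 3 of the Ctr mice at ZT21 had Nadsyn1 highest (21.0 beside 14.9, gap ratio 0.628). Replicate 1 of the HFD mice at ZT9 had Nr1d2 lowest (104 beside 135, gap ratio 0.745). Replicate 2 of the HFD mice at ZT9 had Asns highest (39.7 beside 7.75, gap ratio 0.851).

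The 10 genes with the lowest p for a difference between the ages each had a log2 fold change of ZT21 against ZT9 that differed between 16 and 4 weeks in the interaction test of edgeR. As the 16-week minus the 4-week value, the differences were Sun2 (1.35), Srsf3 (-1.04), Foxa3 (1.11), Xpo1 (-0.84), Spint2 (0.83), Epm2aip1 (-1.07), Slc8b1 (1.53), Mphosph8 (-1.01), Fdps (-2.08) and Nav2 (-1.18). The HFD mouse of replicate 3 at ZT21, which carries 1 label with the other age, is part of this test, and the count of such genes without it was 235.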

How the results depend on the processing

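Of 156 genes given with values that passed the test, 129 kept their call in every alternative other than the fits of 1 diet alone, 91 kept it in those too, and none changed sign. Higher and lower genes numbered 865 to 1131 and 735 to 1189 over the fits that left 1 mouse out, both lowest without Ctr replicate 2 at ZT9. The other alternatives were within 1.5 times of the main counts except the HFD mice alone (358 and 284). The count of differences between the diets, 0 in the main test, was 12 with DESeq2, 10 with no filter on low counts, 1 with a replicate block, 9 without both libraries that stood apart, and 0 to 3 without 1 mouse (2 without HFD replicate 2 at ZT9, 3 without HFD replicate 1 at ZT21). The 402 differences between the ages became 823 with DESeq2, 76 with a GC covariate, 13 with a GC covariate and a replicate block, 132 without both libraries that stood apart, and 69 to 666 without 1 mouse. Those that moved it by over 1.5 times and are not given above were Ctr replicate 2 (188) and HFD replicate 3 (235) at ZT21 at 4 weeks and, at 16 weeks, Ctr replicate 1 (240) and HFD replicate 1 (221) at ZT21 and HFD replicate 3 at ZT9 (242). The causes were not tested. With the size factors of DESeq2 the cholesterol genes with a lower value at 16 weeks were 7, with DESeq2 13 (and 1 higher).

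Deviations from the group means had r between -0.081 and 0.233 for same-numbered mice of a diet and between -0.233 and 0.205 for differently numbered ones. With only 2 Ctr mice at ZT9 their deviations mirror each other, so the Ctr values carry no information on pairing. This check cannot decide whether the numbers pair the mice. With a replicate block 1065 genes were higher, 925 lower and 270 differed between the ages. With only 2 Ctr mice at ZT9, small changes and genes under 1 CPM are the least certain.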
